A study of Homo sapiens with 10 samples.

Results

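The nuclear pore and the receptors that carry cargo through it were examined as 1 group of transcripts, comprising the nucleoporin genes whose symbols are NUP plus a number and the importin, transportin, karyopherin and exportin genes (IPO plus a number, TNPO, KPNA, KPNB and XPO symbols). The platform annotation gave 47 rows with such symbols, 1 of them a pseudogene that was left out, and the remaining 46 rows covered 44 of 14884 named genes. These were 22 nucleoporin genes, 21 transport receptor genes and NUP50-DT, a non-coding RNA divergent from NUP50 that the symbol rule also took. KPNA2, NUP62, XPO1 and XPOT were not analysed here. Where a gene had 2 rows, as NUP214 and IPO5 did, the row of higher mean over all clones was used. The samples were 5 clones of the human prostate cancer cell line PC-3 carrying CENPU in a p-Lenti vector (CENPU clones 1, 4, 5, 7 and 13) and 5 PC-3 clones carrying the empty p-Lenti vector (control clones 1 to 5). PC-3 is an established line from a bone metastasis of prostate cancer. Both kinds of clone had been selected with blasticidin and each was grown as a separate isolate, so a group stands for 5 clonal lines and not for a mixed culture. RNA of each clone was hybridised to 1 Affymetrix array, and levels are log2 expression values, on which a difference of 1 is a doubling.

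Nuclear pore complexes are the channels through which proteins and RNA cross the nuclear envelope. Their scaffold is built from the Y complex of the outer rings and from the inner ring, and nucleoporins with phenylalanine-glycine repeats fill the channel. Importins bind cargo in the cytoplasm and release it when they meet the GTP-bound form of Ran in the nucleus, whereas exportins bind cargo together with that form of Ran. Importin alpha proteins (KPNA genes) are adaptors that read the classical nuclear localisation signal and bind importin beta 1 (KPNB1). In mitosis the envelope of human cells opens, and the Y complex is known to move in part to kinetochores, where CENPU, a subunit of the inner centromere network, also resides.

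The comparison asked which of these transcripts differed between clones that overexpressed CENPU and empty-vector clones. CENPU itself lay between 8.70 and 9.84 in the CENPU clones and between 5.78 and 6.56 in the control clones, so every clone matched its label (log2 difference 3.08, limma adjusted p = 2.89e-05). Array medians over all rows were 4.76, 4.72, 4.69, 4.64 and 4.62 in CENPU clones 1, 4, 5, 7 and 13. In control clones they were 4.66 to 4.71. Across the CENPU clones they thus fell in the order in which the median over the members, given below, rose. The part of this order in the results was not tested. Of the epithelial markers, KRT18 averaged 10.61 ± 0.35 in CENPU clones and 10.82 ± 0.15 in control clones (SD, n = 5 each). KRT19 averaged 10.87 ± 0.26 in CENPU clones and 10.53 ± 0.27 in control clones (SD, n = 5 each), and KRT8 differed by -0.03. EPCAM had the largest difference of the 4 measured epithelial markers, 0.85, which did not pass (limma adjusted p = 0.0839). It measured 5.97 to 7.62 in CENPU clones and 5.74 to 6.12 in control clones. The summed level of the 4 epithelial markers was 33.7 to 37.0 in CENPU clones and 33.3 to 35.1 in control clones. KLK2 and KLK3, androgen receptor targets that PC-3 is known to express weakly, differed by -0.01 and -0.04 between the groups, and their levels cannot be ranked against those of other probe sets. Among markers of other cell types, the summed levels of 2 leukocyte genes (7.40 to 8.29 in CENPU clones and 7.58 to 8.25 in control clones) and of 2 fibroblast genes (5.35 to 5.94 in CENPU clones and 5.69 to 5.96 in control clones) overlapped between the groups. The sum over 3 endothelial genes was 16.2 to 20.9 in CENPU clones and 16.9 to 18.2 in control clones. In the order of clones 1, 4, 5, 7 and 13 for CENPU and 1 to 5 for controls, which is used for all values below, KDR of this list measured 7.95, 6.74, 7.10, 10.51 and 10.15 in CENPU clones, against 8.64, 7.56, 7.87, 8.33 and 7.98 in control clones, so that CENPU 7 and 13, which were also high for many members, stood above all other clones. The part of these markers in the results was not tested. A lower level in RNA of a whole culture can mean fewer cells of a kind or less RNA per cell, and these cannot be told apart here.

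Among transport receptor genes 13 of 21 rose in the CENPU clones and 1 fell, and among nucleoporin genes 7 of 22 rose and 1 fell. Of the 44 genes 20 rose, 2 fell and 22 did not pass, at a limma adjusted p under 0.05 with Benjamini-Hochberg adjustment over all 16098 named rows. The risers made up 45.5% of the members, where 5.31% of all 14884 genes were called higher, and the 2 that fell made up 4.55%, where 4.79% of all genes were called lower. The median log2 difference was 0.63 over the members and -0.02 over all genes, and 35 members (79.5%) had a positive difference, against 46.9% of all genes. The 5 CENPU values all lay above the 5 control values for 15 members (34.1%), a pattern seen in 4.54% of all genes, and all below them for 3 members (6.82%), against 5.19% of all genes. The rises ran from 0.38 to 1.53 on the log2 scale, or 1.30-fold to 2.89-fold, with limma adjusted p from 0.00218 to 0.0498. Many of these calls lay close to the threshold: with any single clone left out, 9 to 22 members were higher, with 10 without CENPU 5, 9 without CENPU 7, 10 without CENPU 13, 12 without control 2, 11 without control 3, 9 without control 4 and 12 without control 5. Without control 2, CENPU 7 and CENPU 13 together, 5 members were higher and 0 lower at the limma threshold in the remaining 7 clones. Fewer clones lower the power of a fit for every gene, and the share of all genes called was not counted in these fits. Without the 3 clones, the median log2 difference was 0.23 over the members and 0.0061 over all genes. All 22 called members kept their sign. They had been picked because they passed with these 7 clones included, so this is a description.

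**Figure D1:**
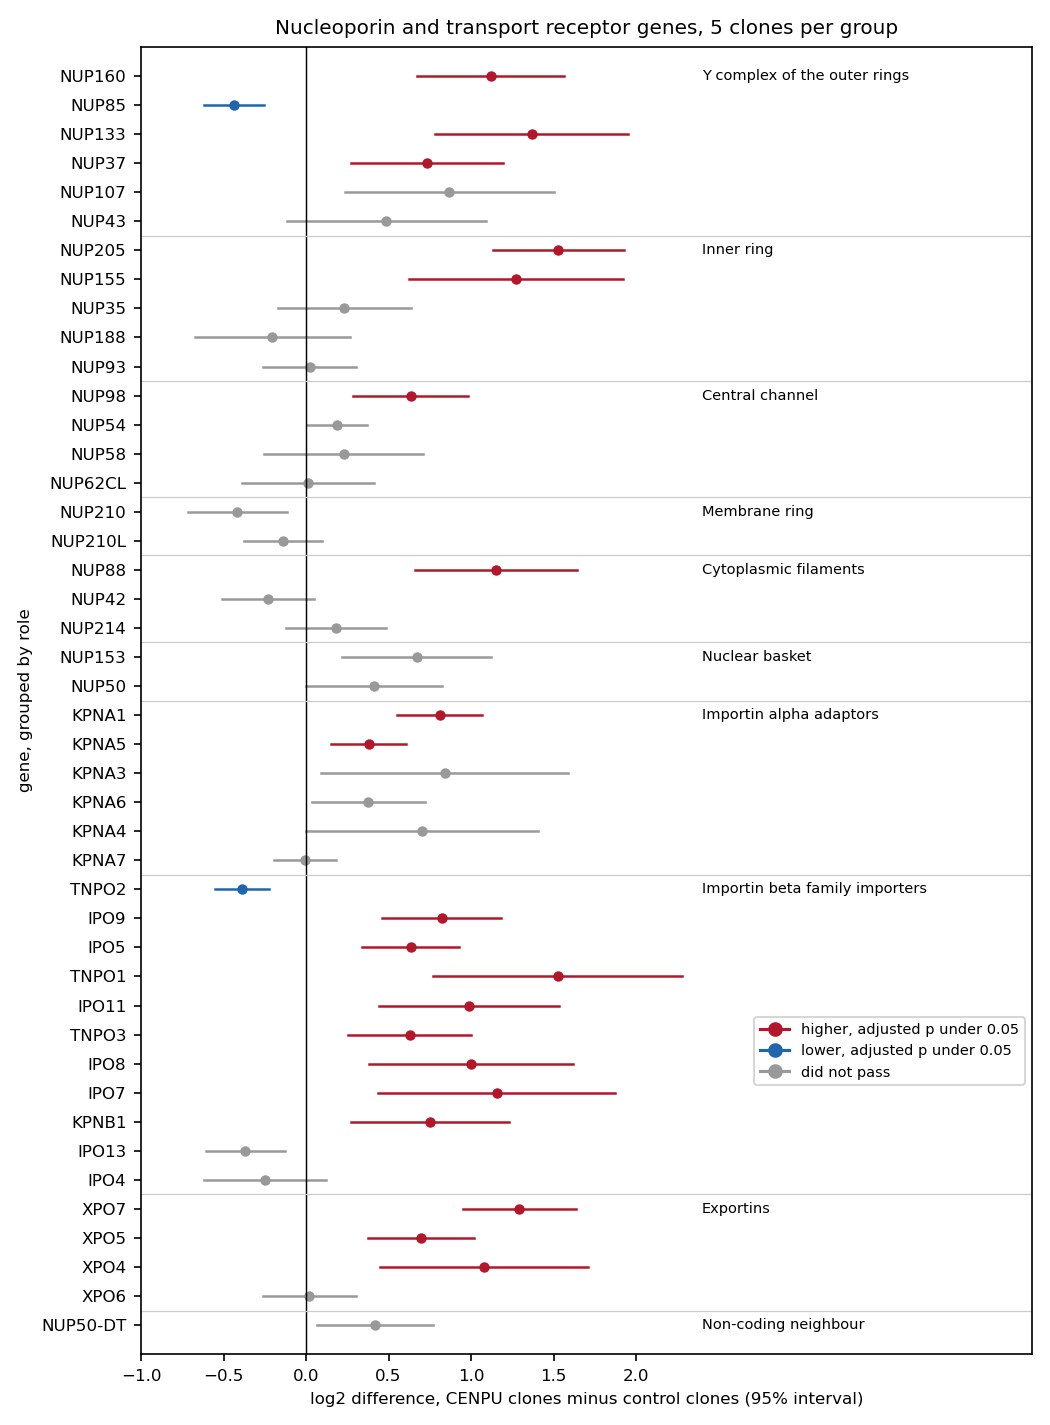
Log2 difference between CENPU and control clones (horizontal axis) for each of the 44 genes, grouped by role, with its 95% interval from limma and 5 clones per group. Red genes rose, blue genes fell and grey genes did not pass; the 20 red points lie between 0.38 and 1.53, and the 2 blue points are NUP85 and TNPO2.

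Promoters are shown for 3 members that rose and for TNPO2, which fell, so that their letters can be read beside one another. Each sequence holds 250 bases before and 50 bases after the RefSeq start of the gene in assembly GRCh38.p14, and capitals mark matches to the motifs searched on both strands. They are the promoters of the called gene with the smallest p in its role, for 4 of the roles. NUP205 lies on the plus strand (chr7:135557667-135557966), and KPNA1 (chr3:122514890-122515189), NUP160 (chr11:47848301-47848600) and TNPO2 (chr19:12723883-12724182) lie on the minus strand.
NUP205: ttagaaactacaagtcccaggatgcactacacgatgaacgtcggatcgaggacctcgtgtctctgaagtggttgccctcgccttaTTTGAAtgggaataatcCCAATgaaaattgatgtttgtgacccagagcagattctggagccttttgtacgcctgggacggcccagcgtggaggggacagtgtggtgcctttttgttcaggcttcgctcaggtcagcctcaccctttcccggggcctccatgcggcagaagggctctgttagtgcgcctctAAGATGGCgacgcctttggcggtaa
KPNA1: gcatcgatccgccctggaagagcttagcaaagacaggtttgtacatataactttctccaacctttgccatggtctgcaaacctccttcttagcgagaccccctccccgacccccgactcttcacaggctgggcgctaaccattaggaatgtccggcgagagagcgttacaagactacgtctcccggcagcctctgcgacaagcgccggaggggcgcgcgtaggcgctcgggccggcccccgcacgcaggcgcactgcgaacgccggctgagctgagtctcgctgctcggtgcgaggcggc
NUP160: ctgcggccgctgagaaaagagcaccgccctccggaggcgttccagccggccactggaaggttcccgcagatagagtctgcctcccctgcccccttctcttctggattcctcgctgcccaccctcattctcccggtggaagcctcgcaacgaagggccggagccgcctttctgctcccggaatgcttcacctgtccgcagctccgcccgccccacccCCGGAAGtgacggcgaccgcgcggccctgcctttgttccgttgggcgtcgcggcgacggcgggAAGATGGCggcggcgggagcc
TNPO2: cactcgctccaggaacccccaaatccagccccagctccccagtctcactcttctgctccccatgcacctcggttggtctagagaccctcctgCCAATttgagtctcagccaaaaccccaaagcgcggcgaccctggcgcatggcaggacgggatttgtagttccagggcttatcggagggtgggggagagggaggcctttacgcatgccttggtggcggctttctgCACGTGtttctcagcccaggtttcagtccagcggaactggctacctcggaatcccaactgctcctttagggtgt
Seen beside one another, NUP205 and NUP160 both hold AAGATGGC, a YY1 motif, just after their start, with the first base at positions 26 and 30. NUP160 also holds the ETS motif CCGGAAG at -34, NUP205 holds the CHR element TTTGAA at -165 and CCAAT at -148, and TNPO2 holds CCAAT at -158 and the E box CACGTG at -24. None of the searched letters occurred in the KPNA1 window.

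Of the 43 protein-coding members 37 had a promoter in the RefSeq table, and these were searched for the same motifs on both strands, and matches of different motifs may overlap. CCAAT was found in 19 of 37 (51.4%), against 36.4% of 15843 promoters of protein-coding genes. The ETS motif CCGGAAG was found in 12 (32.4%) against 14.2%, AAGATGGC in 5 (13.5%) against 3.91%, and the NRF1 motif GCGCATGCG in 3 (8.11%) against 2.76%. TTTGAA was found in 7 (18.9%) against 12.1%, CACGTG in 6 (16.2%) against 8.88%, and the E2F motif TTTCCCGC in 0 of 37 against 2.18%. Among the 17 risers with a promoter, 8 held CCAAT, 4 CCGGAAG, 3 AAGATGGC, 5 TTTGAA, 1 GCGCATGCG, 1 CACGTG and 0 TTTCCCGC. Risers were 17 of the 37 members searched. They were 8 of 19 with CCAAT, 4 of 12 with CCGGAAG and 1 of 6 with CACGTG. With GCGCATGCG they were 1 of 3, with AAGATGGC 3 of 5 and with TTTGAA 5 of 7. Whether a motif went with the rise was not tested. The median GC content was 62.7% in both the member promoters and all promoters. The median count of CpG (C followed by G) was 27 in the member promoters and 22 in all promoters. Motif shares were not compared at equal CpG count. Such matches are letters in a window and do not show that a factor binds there.

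The Y complex, the scaffold of the outer rings, had 3 of 6 measured members higher and 1 lower. NUP160, in the arm of the Y, measured 7.69, 8.07, 8.08, 8.74 and 8.72 in CENPU clones, against 7.31, 6.76, 7.33, 7.07 and 7.24 in control clones. Every CENPU clone exceeded every control clone, by a mean of 1.12 on the log2 scale, or 2.17-fold (standard error 0.20, limma adjusted p = 0.00913). NUP133, at the tail of the Y, measured 6.49, 7.16, 7.58, 7.64 and 7.88 in CENPU clones, against 6.33, 5.31, 6.37, 6.0 and 5.91 in control clones. Its groups did not overlap either, although CENPU 1 lay only just above the highest control, and it rose by 1.37, or 2.58-fold (limma adjusted p = 0.0122). NUP37, which attaches to NUP160, measured 6.75, 6.68, 6.86, 7.26 and 7.47 in CENPU clones, against 6.89, 5.86, 6.06, 6.09 and 6.45 in control clones. It rose by 0.73 with overlapping groups, since control 1 lay above CENPU 1, 4 and 5 (limma adjusted p = 0.0478).

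NUP85, in the short arm of the Y, moved the other way. It measured 8.74, 8.70, 8.63, 8.60 and 8.54 in CENPU clones, against 9.13, 9.05, 8.91, 9.14 and 9.15 in control clones, so that all CENPU clones were below all controls with little spread in either group. The log2 difference was -0.44, or 1.35-fold lower (standard error 0.08, limma adjusted p = 0.0118). NUP107, the stem subunit bound by NUP133, measured 5.93, 6.36, 6.97, 7.34 and 7.60 in CENPU clones, against 6.12, 5.41, 6.17, 6.11 and 6.04 in control clones. CENPU 4, 5, 7 and 13 lay above all controls and CENPU 1 lay below 4 of the 5, and the difference of 0.87 did not pass (limma adjusted p = 0.0787). NUP43, the partner of NUP85, measured 7.48, 7.69, 7.70, 8.18 and 8.56 in CENPU clones, against 8.06, 6.67, 7.02, 7.57 and 7.84 in control clones (difference 0.49, 95% interval -0.12 to 1.09). Without control 2, CENPU 7 and CENPU 13, the median difference of the 6 genes was 0.35, against 0.80 in all clones.

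Inner ring genes split by subunit, with 2 of 5 higher and 0 lower. NUP205, a large scaffold protein, had the largest difference of any member, at 8.49, 8.70, 8.75, 9.21 and 9.38 in CENPU clones, against 7.48, 6.94, 7.60, 7.39 and 7.48 in control clones. The groups were far apart relative to the spread within each, and the rise of 1.53 was 2.89-fold (standard error 0.18, limma adjusted p = 0.00218). NUP155, which links the ring to the pore membrane, measured 8.77, 8.68, 9.79, 9.93 and 9.87 in CENPU clones, against 8.57, 7.35, 8.20, 8.20 and 8.37 in control clones. CENPU 1 and 4 were near control 1 while CENPU 5, 7 and 13 were over 1 unit higher, and the mean rise was 1.27 (limma adjusted p = 0.0233). NUP188, a structural relative of NUP205 that also binds NUP93, measured 9.39, 9.74, 9.01, 9.87 and 9.91 in CENPU clones, against 10.20, 9.21, 9.63, 9.78 and 10.11 in control clones. Its groups overlapped over most of their range, with a difference of -0.20 (95% interval -0.67 to 0.27). NUP35, a small membrane-binding subunit, measured 5.30, 5.51, 6.17, 5.81 and 6.29 in CENPU clones, against 5.81, 5.55, 5.54, 5.32 and 5.70 in control clones (difference 0.23, interval -0.17 to 0.64), and NUP93, the linker that holds the ring together, differed by 0.02 (interval -0.26 to 0.30).

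In the central channel 1 of 4 genes rose. NUP98, a repeat nucleoporin that also helps messenger RNA leave the nucleus, measured 8.96, 9.08, 9.26, 9.17 and 9.33 in CENPU clones, against 8.83, 7.95, 8.46, 8.57 and 8.82 in control clones. Its groups did not overlap, with a rise of 0.63, or 1.55-fold (limma adjusted p = 0.0304). NUP54, of the channel trimer, measured 4.01, 4.12, 4.14, 4.11 and 4.33 in CENPU clones, against 3.98, 3.94, 3.91, 3.94 and 4.01 in control clones, a dim row in all clones with a difference of 0.19 that did not pass (limma adjusted p = 0.168). NUP58, of the same trimer, measured 7.10, 6.80, 7.29, 7.70 and 7.80 in CENPU clones, against 7.45, 6.48, 7.11, 7.11 and 7.38 in control clones, with overlapping groups and a difference of 0.23 (interval -0.25 to 0.71). NUP62CL, a relative of the third trimer subunit, had a difference of 0.01 (interval -0.39 to 0.41).

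At the membrane, neither of 2 genes passed. NUP210, a pore membrane glycoprotein, measured 8.79, 8.91, 9.51, 8.98 and 8.98 in CENPU clones, against 9.56, 9.22, 9.52, 9.34 and 9.61 in control clones. All CENPU clones other than clone 5 lay below all controls, and the difference of -0.42 had a limma adjusted p of 0.0767. NUP210L, its relative, measured 4.12, 3.94, 3.85, 3.65 and 3.68 in CENPU clones, against 3.99, 3.90, 3.99, 3.89 and 4.17 in control clones (difference -0.14, interval -0.38 to 0.10). Of the 3 genes of the cytoplasmic filaments 1 rose. NUP88, a platform protein on the cytoplasmic face, measured 7.58, 7.78, 8.22, 8.44 and 8.62 in CENPU clones, against 7.38, 6.38, 6.91, 7.03 and 7.19 in control clones. It was higher in all CENPU clones than in all controls, by 1.15, or 2.22-fold (standard error 0.22, limma adjusted p = 0.0121).

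NUP214, the repeat nucleoporin that binds NUP88, was read by 2 rows that differed. The row of higher mean measured 8.42, 8.91, 8.85, 8.90 and 9.11 in CENPU clones, against 8.88, 8.37, 8.66, 8.57 and 8.81 in control clones, with a difference of 0.18 that did not pass (interval -0.12 to 0.48). The dimmer row averaged 6.36 ± 0.15 in CENPU clones and 5.73 ± 0.25 in control clones (SD, n = 5 each), did not overlap and was higher by 0.64 (limma adjusted p = 0.0143). NUP42, which works with the export factor GLE1 on the cytoplasmic face, measured 5.23, 5.27, 5.41, 5.59 and 5.69 in CENPU clones, against 5.90, 5.38, 5.82, 5.68 and 5.57 in control clones. Its groups overlapped, with a difference of -0.23 (interval -0.51 to 0.05). In the nuclear basket, NUP153, which anchors the basket, measured 8.58, 8.52, 9.38, 9.30 and 9.30 in CENPU clones, against 8.65, 7.86, 8.35, 8.31 and 8.56 in control clones, and its difference of 0.67 did not pass (limma adjusted p = 0.0612). NUP50, which helps importin alpha release its cargo, measured 5.99, 6.05, 6.37, 6.97 and 6.47 in CENPU clones, against 6.16, 5.50, 6.10, 5.98 and 6.04 in control clones, with a difference of 0.41 (interval -0.00 to 0.82). The non-coding NUP50-DT differed by 0.42 (interval 0.07 to 0.77).

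**Figure D2:**
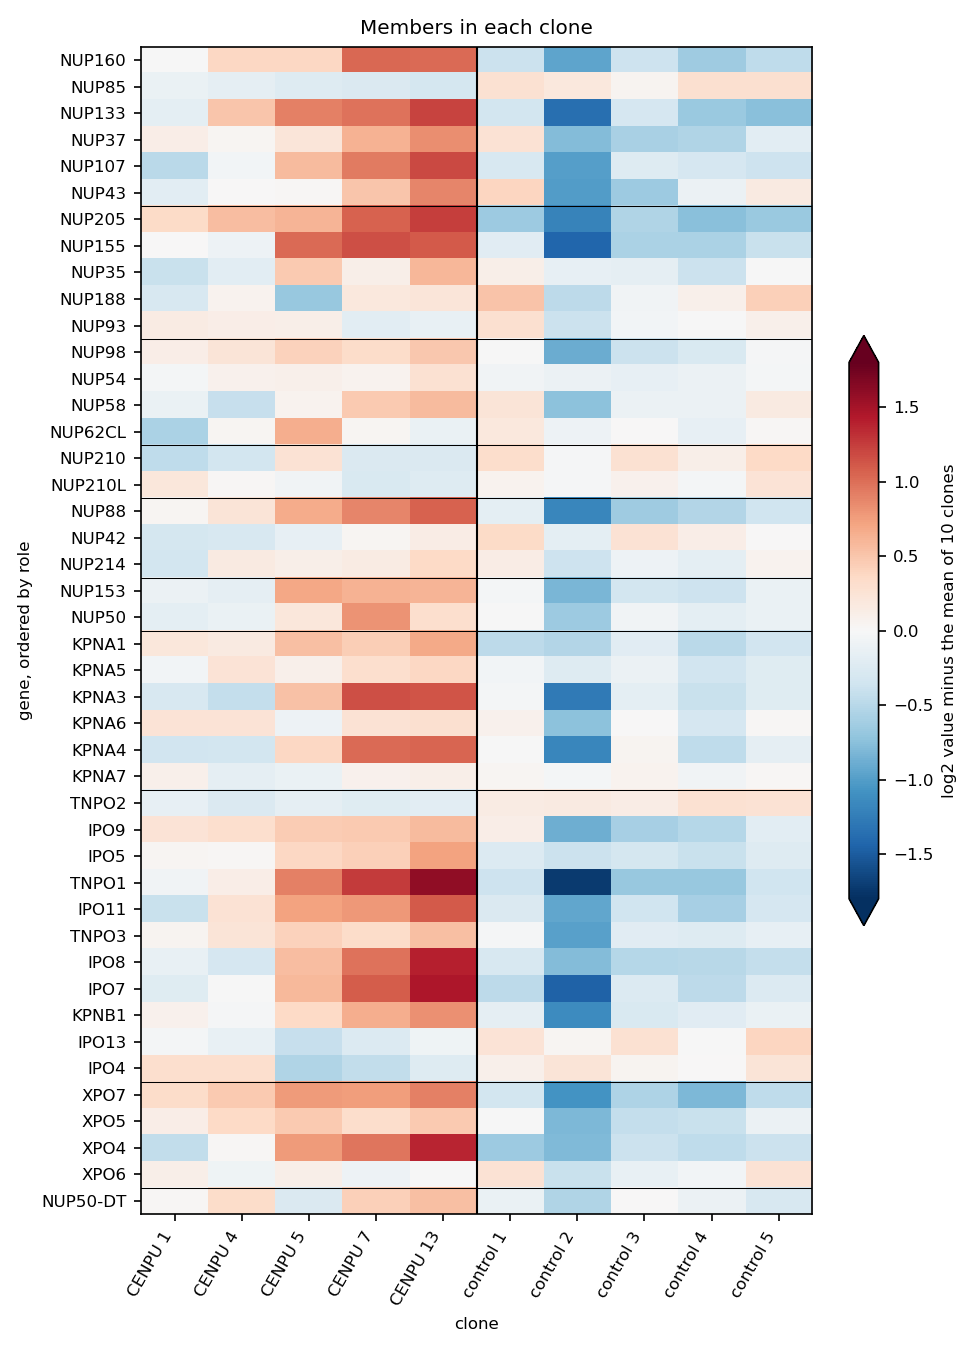
Each gene (rows, ordered by role) in each clone (columns, CENPU clones left of the line, control clones right of it), as log2 value minus the mean of the 10 clones. CENPU 13 was the highest clone for 28 of the 44 genes and control 2 the lowest for 30, which shows as the darkest red and darkest blue columns.

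Importin alpha adaptor genes had 2 of 6 higher and 0 lower. KPNA1 measured 8.18, 8.13, 8.52, 8.41 and 8.65 in CENPU clones, against 7.51, 7.45, 7.77, 7.49 and 7.63 in control clones. All CENPU clones, including clones 1 and 4, were above all controls, and the rise was 0.81, or 1.75-fold (standard error 0.12, limma adjusted p = 0.00401). KPNA5, of the same subfamily, measured 5.48, 5.77, 5.62, 5.83 and 5.91 in CENPU clones, against 5.48, 5.30, 5.43, 5.19 and 5.31 in control clones, and rose by 0.38 with CENPU 1 level with control 1 (limma adjusted p = 0.0398). KPNA6, the other member of that subfamily, measured 9.70, 9.71, 9.37, 9.71 and 9.74 in CENPU clones, against 9.53, 8.71, 9.46, 9.15 and 9.48 in control clones. Control 2 was low and CENPU 5 lay below the other CENPU clones, and the difference of 0.38 did not pass (limma adjusted p = 0.144). KPNA3 measured 7.03, 6.88, 7.84, 8.47 and 8.45 in CENPU clones, against 7.28, 6.05, 7.14, 6.92 and 7.10 in control clones, with CENPU 1 and 4 among the controls and CENPU 5, 7 and 13 above them. Its difference of 0.84 did not pass (limma adjusted p = 0.137), nor did the 0.71 of KPNA4, its closest relative (limma adjusted p = 0.180). KPNA7, known mainly from oocytes and early embryos, differed by -0.00 (interval -0.19 to 0.18).

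Importers of the importin beta family showed the most calls of any role, with 8 of 11 higher and 1 lower. KPNB1, importin beta 1, measured 11.57, 11.47, 11.85, 12.15 and 12.31 in CENPU clones, against 11.34, 10.37, 11.22, 11.29 and 11.38 in control clones. Its groups did not overlap, with control 2 well under the other controls, and the rise of 0.75, or 1.68-fold, was just past the threshold (limma adjusted p = 0.0498). TNPO1, transportin 1, which imports hnRNP proteins, measured 7.88, 8.07, 8.86, 9.21 and 9.55 in CENPU clones, against 7.58, 6.22, 7.27, 7.27 and 7.59 in control clones. It rose by 1.53, or 2.88-fold, without overlap, and its CENPU values spread over more than 1 unit from clone 1 to clone 13 (standard error 0.35, limma adjusted p = 0.0210). TNPO2, its closest relative, measured 10.22, 10.09, 10.20, 10.15 and 10.16 in CENPU clones, against 10.51, 10.52, 10.49, 10.63 and 10.61 in control clones. All CENPU clones were below all controls, by -0.39, or 1.31-fold lower (standard error 0.08, limma adjusted p = 0.0120).

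TNPO3, which imports SR splicing factors, measured 9.35, 9.53, 9.70, 9.62 and 9.84 in CENPU clones, against 9.28, 8.32, 9.09, 9.06 and 9.14 in control clones. CENPU 1 was just above control 1, and the rise was 0.63 (limma adjusted p = 0.0389). IPO7, an importer of ribosomal proteins, measured 8.46, 8.67, 9.25, 9.76 and 10.13 in CENPU clones, against 8.21, 7.23, 8.43, 8.20 and 8.42 in control clones. It rose by 1.15, with CENPU 1 only just above the highest controls and CENPU 7 and 13 more than 1 unit above them (limma adjusted p = 0.0461). IPO8, its close relative, measured 6.15, 5.99, 6.84, 7.26 and 7.68 in CENPU clones, against 6.0, 5.50, 5.77, 5.78 and 5.85 in control clones, and rose by 1.00 with CENPU 4 level with control 1 (limma adjusted p = 0.0455).

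IPO9, which carries histones H2A and H2B, measured 8.11, 8.16, 8.31, 8.32 and 8.43 in CENPU clones, against 7.97, 6.98, 7.26, 7.33 and 7.67 in control clones. The groups did not overlap and the rise was 0.82, or 1.77-fold (standard error 0.17, limma adjusted p = 0.0139). IPO5 measured 5.03, 5.02, 5.37, 5.44 and 5.73 in CENPU clones, against 4.76, 4.61, 4.68, 4.60 and 4.77 in control clones, a rise of 0.63 (limma adjusted p = 0.0160). This row was itself dim, with a mean of 5.00 over the 10 clones against a median of 5.82 over all genes. The second, still dimmer row of IPO5 differed by 0.19 and did not pass (limma adjusted p = 0.449). With the rows of the gene averaged IPO5 lost its call. IPO11, which imports ubiquitin-conjugating enzymes, measured 5.90, 6.54, 7.01, 7.07 and 7.39 in CENPU clones, against 6.02, 5.35, 5.93, 5.69 and 5.98 in control clones, and rose by 0.99 with CENPU 1 inside the control range (limma adjusted p = 0.0302).

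Both remaining importers had negative differences that did not pass. IPO13, which works in both directions, measured 8.55, 8.45, 8.16, 8.34 and 8.51 in CENPU clones, against 8.83, 8.61, 8.86, 8.57 and 8.97 in control clones. All CENPU clones were below all controls, but the difference of -0.37 missed the threshold (limma adjusted p = 0.0541). IPO4, an importer of histones H3 and H4, measured 9.97, 9.96, 9.13, 9.22 and 9.43 in CENPU clones, against 9.76, 9.91, 9.72, 9.68 and 9.90 in control clones. CENPU 5, 7 and 13 lay below all controls while CENPU 1 and 4 lay above them, with a difference of -0.25 (interval -0.62 to 0.12).

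Among the exportins 3 of 4 rose and 0 fell. XPO7, an exportin that also imports some cargo, measured 8.86, 9.0, 9.30, 9.28 and 9.44 in CENPU clones, against 8.20, 7.46, 7.97, 7.72 and 8.07 in control clones. All CENPU clones exceeded all controls, and the rise was 1.29, or 2.45-fold (standard error 0.16, limma adjusted p = 0.00218). XPO5, which exports microRNA precursors, measured 8.76, 9.0, 9.10, 8.96 and 9.11 in CENPU clones, against 8.63, 7.83, 8.21, 8.24 and 8.53 in control clones, a rise of 0.70 without overlap (limma adjusted p = 0.0155). XPO4, the exporter of the translation factor eIF5A, measured 7.01, 7.47, 8.22, 8.41 and 8.82 in CENPU clones, against 6.79, 6.65, 7.06, 6.99 and 7.05 in control clones. It rose by 1.08 on average, with CENPU 1 inside the control range (limma adjusted p = 0.0375). XPO6, which exports actin with profilin, measured 9.97, 9.79, 9.97, 9.77 and 9.86 in CENPU clones, against 10.12, 9.47, 9.73, 9.82 and 10.13 in control clones, with groups that overlapped throughout and a difference of 0.02 (interval -0.26 to 0.30).

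**Figure D3:**
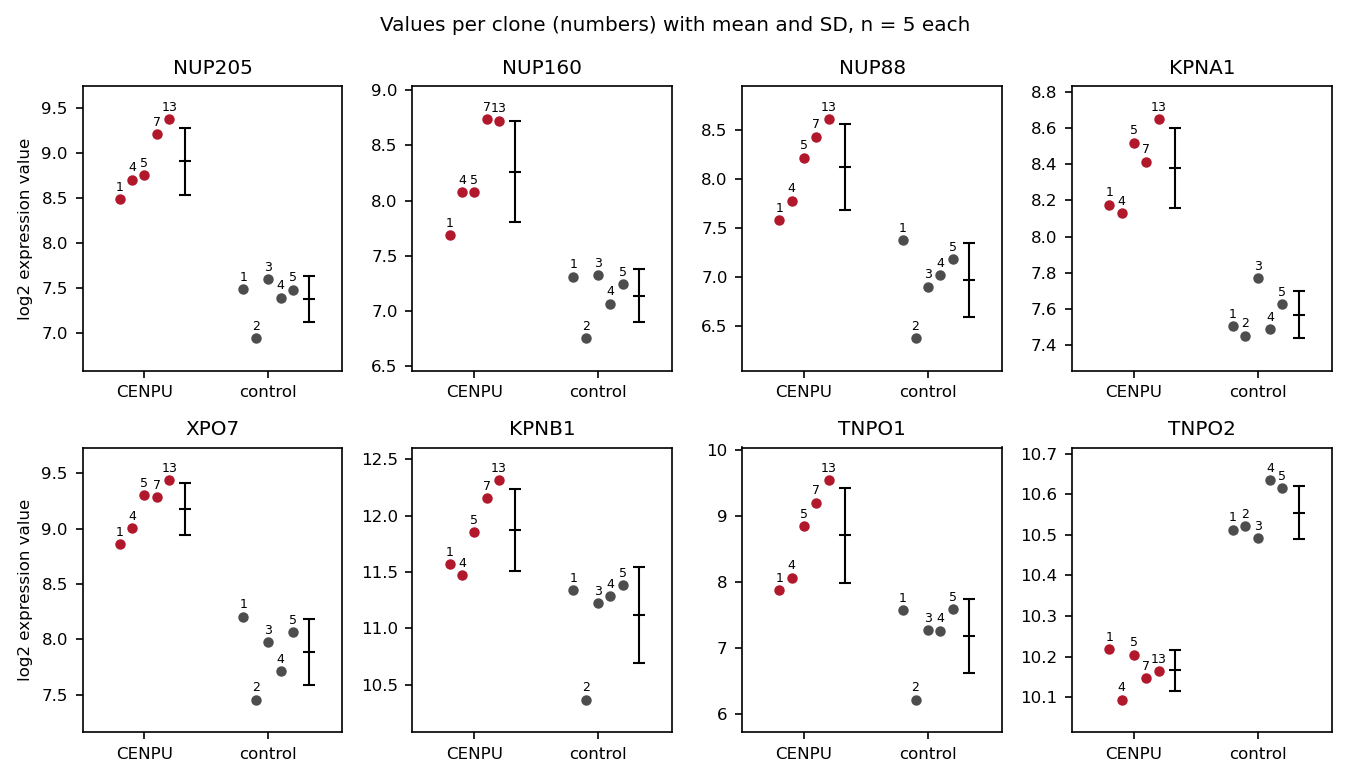
Log2 expression values (vertical axes, own scale per gene) of 8 members in each clone, with clone numbers beside the points and mean and SD at the right of each group (n = 5). NUP205, NUP160, NUP88, KPNA1, XPO7, KPNB1 and TNPO1 are higher in all CENPU clones than in all control clones, and TNPO2 is lower in all CENPU clones.

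Close relatives were compared in 10 pairs by subtracting one log2 value from the other within each clone. The pairs were taken by relatedness after the single values had been seen, and several members were already known not to overlap between the groups, so the shifts are a description without a test. The offset between 2 rows also holds the brightness of their probes, so only its shift between groups has a meaning. TNPO1 minus TNPO2 averaged -1.45 ± 0.72 in CENPU clones and -3.37 ± 0.55 in control clones (SD, n = 5 each), a shift of 1.91, or 3.77-fold in the ratio, in which the rise of one and the fall of the other add up. NUP205 minus NUP188 averaged -0.68 ± 0.31 in CENPU clones and -2.41 ± 0.28 in control clones (SD, n = 5 each), a shift of 1.73. XPO7 minus RANBP17, its relative, shifted by 1.30, KPNA1 minus KPNA5 by 0.43 and KPNA1 minus KPNA6 by 0.43. The within-clone differences of KPNA1 and KPNA6 overlapped between the groups. For the other 5 pairs the shift was 0.15 for IPO7 and IPO8, 0.13 for KPNA3 and KPNA4, -0.0024 for KPNA6 and KPNA5, -0.06 for IPO5 and RANBP6 and -0.28 for NUP210 and NUP210L, and the within-clone differences of these 5 pairs overlapped between the groups.

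The clones were not alike within a group. The median deviation of the 44 genes from their 10-clone mean amounted to 0.57 for CENPU 13, 0.44 for CENPU 7 and 0.37 for CENPU 5, but 0.03 for CENPU 4 and -0.05 for CENPU 1. Control clones 1 to 5 had -0.01, -0.76, -0.19, -0.30 and -0.12. CENPU 1 and CENPU 4 thus lay close to control 1 in the median over members. For the 20 risers taken one by one, however, CENPU 1 was above all controls in 16, CENPU 4 in 18, CENPU 5 in 19, and CENPU 7 and CENPU 13 in 20 each. Those 20 were picked because they passed, so these counts are a description. The same deviation over all genes was -0.06 to 0.01 in the 10 clones.

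**Figure D4:**
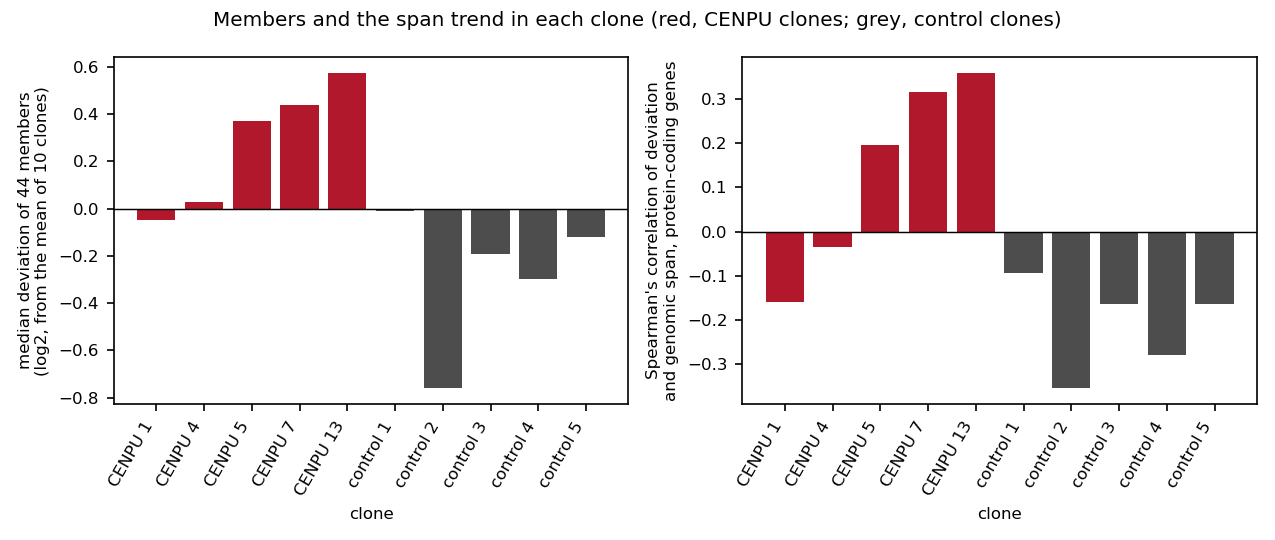
Left, median deviation of the 44 genes from the mean of the 10 clones (log2) in each clone; right, Spearman's correlation across 11916 protein-coding genes between a clone's deviation and the genomic span of the gene. Red bars are CENPU clones and grey bars control clones. CENPU 13 is highest and control 2 lowest in both panels, and CENPU 1 and CENPU 4 are near or below 0 on the right.

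The order of the clones in the members went with a trend over the whole array, in which genes of long genomic span moved together. For CENPU clones 1, 4, 5, 7 and 13 the rank correlation (Spearman) between deviation and span was -0.16, -0.04, 0.20, 0.32 and 0.36, and for control clones 1 to 5 it was -0.09, -0.36, -0.16, -0.28 and -0.16. The coding members were long genes, with a median span of 68.5 kb against 26.7 kb over 11916 protein-coding genes, and 33 of 43 lay in the longest 2 of 5 span classes. Both members that fell, NUP85 and TNPO2, lay in the middle class, at 30.1 and 24.7 kb. Across the 43 coding members, Spearman's correlation of span with log2 difference was 0.25, and across all protein-coding genes it was 0.33; genes share the same 10 arrays, and both values are descriptions. Among protein-coding genes above the median level, 9 of 14 members of the fourth class were higher (64.3%), where 11.1% of all such genes were called higher. In the longest class 7 of 13 members were higher (53.8%) against 18.4%, and in the middle class 2 of 7 (28.6%) against 8.32%. The 2 that fell were 28.6% of those 7, where 8.19% of all such genes were called lower. With the span trend removed from each array by loess, 17 members were higher and 4 lower. The share of all genes called was not counted there, and the median difference was 0.43 over the members and -0.04 over all genes. The calls of NUP98, KPNA5 and TNPO3 were lost, and NUP210 (-0.61) and IPO13 (-0.40) passed as lower. Removing an average trend does not show how much of a single difference belongs to it, and its part in these results was not tested further.

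**Figure D5:**
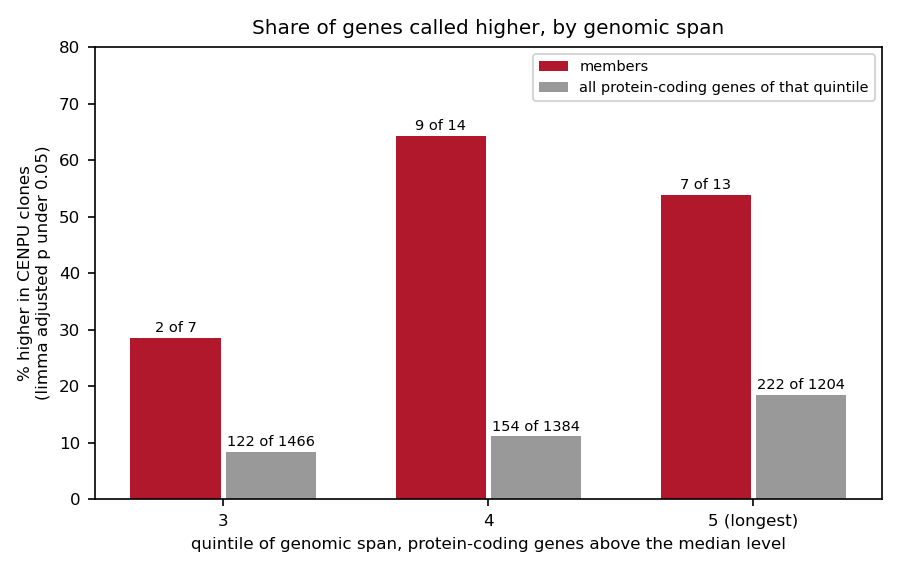
Share of genes called higher in CENPU clones (vertical axis, percent, limma adjusted p under 0.05) in the 3 span classes that hold over 1 member, among protein-coding genes above the median level. Red bars are members and grey bars all genes of the class, with counts above the bars; the red bars stand at 28.6%, 64.3% and 53.8% and the grey bars at 8.32%, 11.1% and 18.4%.

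The members that least depended on single clones were identified by leaving out each clone in turn. NUP205, NUP160, NUP133, NUP88, NUP85, KPNA1, IPO5, IPO9, TNPO2, XPO5 and XPO7, 11 of the 22 called members, passed in all 10 such fits, and the other 11 were lost in at least 1. IPO5, however, rests on a dim row and lost its call with its rows averaged. Control 2, CENPU 7 and CENPU 13 had the most extreme span correlations. They also had the most extreme median deviations of the members, -0.76, 0.44 and 0.57. Smaller member differences without them thus follow in part from the choice of clones. Without these 3 clones, 5 members passed in limma. They were NUP205 at 1.16, XPO7 at 1.07, NUP88 at 0.74, NUP160 at 0.71 and KPNA1 at 0.68. The 22 called members kept a median of 65.8% of their difference in that fit, with a range from 41.3% in IPO7 to 100.4% in TNPO2. Those 22 were picked because they passed in all clones, so the shares kept are a description. KPNB1 differed there by 0.32, IPO7 by 0.48 and TNPO1 by 0.84, and none of these 3 passed (limma adjusted p = 0.184, 0.187 and 0.0675).

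Other genes of the pathway, taken from 5 lists outside the naming rule, were examined in the same fit, in which 3 of 56 measured genes rose, 8 fell and 45 missed the threshold. The risers were 5.36% of the 56, where 5.31% of all genes were called higher, and those that fell were 14.3%, where 4.79% of all genes were called lower. The list genes that fell were mostly short. Among those above the median level, all 6 of the shortest span class fell (RANGRF, NXT1, THOC6, ALYREF, EMD and BANF1), in a class where 13.8% of all such genes were called lower. In the second class 1 of 6 fell (LEMD2), where 11.8% of all such genes were called lower, and RANGAP1 lay in the fourth. The part of the span trend in these calls was not tested. The median log2 difference of the 56 genes was 0.08. Among 9 measured pore subunits with other names, 1 rose (11.1%, against 5.31% of all genes called higher). AHCTF1, which seeds pores on chromatin and recruits the Y complex, was higher by 1.31 (limma adjusted p = 0.0300), while RANBP2 of the cytoplasmic filaments (1.02, limma adjusted p = 0.0558), NDC1 of the membrane (0.64) and TMEM33 (0.49) did not pass. The list median was 0.46. POM121 and POM121C, named after their values were seen, differed by 0.17 and -0.19 and are near-identical copies whose signals cannot be assigned with certainty.

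Of 11 measured genes of the Ran cycle and of carriers with other names, 1 rose and 2 fell. These were 9.09% and 18.2% of the list, where 5.31% and 4.79% of all genes were called higher and lower. CSE1L, the exportin that returns importin alpha to the cytoplasm, rose. It measured 9.67, 9.96, 10.89, 11.05 and 11.35 in CENPU clones, against 9.66, 7.78, 9.36, 9.44 and 9.67 in control clones, with control 2 far below the other controls, a difference of 1.40 (limma adjusted p = 0.0492). RANGAP1, the activator of Ran GTP hydrolysis, measured 9.67, 9.43, 9.26, 9.29 and 9.06 in CENPU clones, against 9.79, 10.13, 10.02, 10.09 and 9.94 in control clones. It fell by 0.65 on the log2 scale (limma adjusted p = 0.00938), and RANGRF, a Ran-binding factor, fell by 0.51 (limma adjusted p = 0.0252). RANBP6, a relative of IPO5, differed by 0.69 and did not pass, and the list median was -0.0021.

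Among 17 measured mRNA export factors 1 rose (5.88%, against 5.31% of all genes called higher) and 3 fell (17.6%, against 4.79% called lower). The list median was 0.17, and the 3 that fell were all in the shortest span class. NXT1, the partner of the main mRNA export receptor, fell by 0.57 (limma adjusted p = 0.00676), THOC6 of the THO complex by 0.64 (limma adjusted p = 0.0188) and the export adaptor ALYREF by 0.44 (limma adjusted p = 0.0385). ENY2, of the TREX-2 complex at the basket, rose by 0.92 (limma adjusted p = 0.0236). Of 15 measured lamina and inner nuclear membrane genes 0 rose and 3 fell in limma (20.0%, against 4.79% of all genes called lower), and before adjustment 1 was higher and 6 were lower with p under 0.05. The list median was 0.0038. All 3 were in the shortest 2 of 5 span classes. Emerin (EMD) fell by 0.60, BANF1, which bridges chromatin and the membrane, by 0.44 and LEMD2 by 0.41 (limma adjusted p = 0.0137, 0.0143 and 0.0334), and SUN1 differed by -0.26 and did not pass. None of 4 measured SUMO pathway genes passed in limma, although before adjustment 1 was higher and 1 lower with p under 0.05 (SENP1 0.71, SUMO2 -0.34, SAE1 0.06, SUMO3 0.00). Without control 2, CENPU 7 and CENPU 13, 0 of the 56 genes were higher and 1, NXT1 at -0.52, was lower. With CENPU 7, control 2, control 3 or control 4 left out, 0 of the 56 were higher, with CENPU 1 left out 8 were, and with CENPU 4 left out 6 were.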

How the data were processed

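The log2 expression values were deposited by the authors, with 1 column for each of 10 clones and 53617 probe-set rows, and the log2 scale was inferred from their range. Per the submitters' processing notes the tools were Partek and RMA, with no version. RMA comprises background correction, quantile normalization and probe summary, so a change shared by most transcripts would not be visible, and differences of dim rows are compressed. Arrays have no read depth, and their number limits the precision.

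Of the array rows, 16098 had 1 symbol in the platform annotation, 0 had several and 37519 had none. All 16098 were matched by gene ID to RefSeq (GRCh38.p14), used for names, gene type, genomic span and promoters. For the array's own genome build, the sources used here give none. For 779 genes with several rows, the row of highest mean was used, giving 14884 genes. Each row was tested with limma 3.58.1 in R 4.3.3 (lmFit, eBayes with a constant prior, no covariates), with Benjamini-Hochberg adjustment over 16098 rows. The fit was tested on simulated data. The labels describe separate clonal isolates and name no batch, and the p-values rest on clone-to-clone spread. Members, lists, tests and alternatives were chosen with earlier results of these data known. Named genes were all members and up to 4 genes of each pathway list by smallest p, and POM121, POM121C, RANBP17 and the markers were named outside that rule. Promoters shown were those of the called genes with the smallest p in 4 roles, with genes on chromosome 8 left out. The alternatives were other scalings, row filters, variance models and thresholds, rows averaged per gene, a block by clone number, loess removal of the span trend, each clone left out, and 3 clones left out. Same-numbered clones were not paired: their deviations correlated by -0.38, 0.10 and 0.02 for numbers 1, 4 and 5.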

Additional observations from a re-analysis of the deposited data

Results flagged for a closer look

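In 65 named genes, both groups of 5 clones were examined for a single clone far from the other 4, taken as a gap to the nearest clone of more than 0.71 of the group's whole range. It was found in 9 of 130 groups, where chance gives about 1 in 20. Control 2 was the low clone in 7 of the 9. It measured 6.22 for TNPO1, with the nearest control at 7.27, and 7.23 for IPO7, with the nearest at 8.20. For KPNB1 it measured 10.4 (nearest 11.2), for TNPO3 8.32 (nearest 9.06), for NUP107 5.41 (nearest 6.04), for NUP50 5.50 (nearest 5.98) and for CSE1L 7.78 (nearest 9.36). Without control 2 the log2 differences were 1.28 for TNPO1, 0.94 for IPO7, 0.56 for KPNB1 and 0.46 for TNPO3. CENPU 5 was the distant clone in the other 2, high for NUP210 at 9.51 (nearest 8.98) and low for KPNA6 at 9.37 (nearest 9.70). Without CENPU 5 the differences were -0.53 for NUP210 and 0.45 for KPNA6. Control 2 also had the lowest correlation of deviation with genomic span of all 10 clones, -0.36, and the part of that trend in these values was not tested.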

How the results depend on the processing

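No called member changed sign under any of the 22 alternatives that gave it a value, and CENPU passed in all of them. Other thresholds, row filters, the fit of all rows and the trend and robust eBayes leave the difference itself as it was. Those alternatives could not reverse a sign, and the called members had been picked because they passed in all clones. The count of members higher, 20 in all clones, was 13 after median centring, 13 with all rows of the table in the fit, 4 at a threshold of 0.01, and 5 without control 2, CENPU 7 and CENPU 13 together. The count lower, 2 in all clones, was 4 after quantile normalization, 4 with the span trend removed, 4 at a threshold of 0.10, 0 at 0.01 and 0 without those 3 clones. With 1 clone left out, 9 to 22 members were higher, 2 to 3 lower and 18 to 23 did not overlap, and the median difference was 0.48 to 0.69. The median was 0.23 without the 3 clones. Smaller groups separate more easily for any gene, and the share of all genes not overlapping was not counted in these fits. The count of pathway list genes higher, 3 in all clones, was 6 with dim rows left out, 8 with array weights, 7 at 0.10, 0 at 0.01, 0 without the 3 clones and 0 to 8 with 1 clone left out. The count lower, 8, was 2 at 0.01, 1 without the 3 clones and 4 to 9 with 1 clone left out. Some of these fits have fewer clones or a stricter threshold by construction, and otherwise the cause was not tested. The share of all genes called was not counted under these alternatives. How far the counts moved with the whole array is therefore not known.

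In a replicate block by clone number, which compares only the shared numbers 1, 4 and 5, 1 member was higher and 0 lower in limma, 0 pathway genes were higher and 0 lower, and the median difference was 0.24. Members that did not pass changed sign in places, without passing, among them NUP43 with a difference of 0.49 in all clones. NUP93 was -0.046 after quantile normalization, -0.024 with array weights, -0.00049 in the block, -0.18 with the span trend removed and -0.071 to 0.097 with 1 clone left out. XPO6 was -0.069, -0.030, -0.11, -0.18 and -0.076 to 0.089 in the same order, and -0.038 without the 3 clones. NUP214 was -0.026 in the block, -0.017 with the span trend removed and -0.0018 without the 3 clones, NUP43 -0.20 in the block and -7.4e-05 without the 3 clones, and NUP58 -0.25 and -0.20. NUP62CL was -0.18 with the span trend removed and -0.15 to 0.15 with 1 clone left out, and KPNA7 -0.031 to 0.034. Signal over background of single probes was not assessed.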
